A study of Mus musculus with 10 samples.

Results

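The genes described here encode the motors and the regulatory structures of the axoneme, the microtubule core of the sperm tail: dynein arm chains, factors that assemble or dock the arms, radial spoke, central pair and nexin-dynein regulatory complex proteins, and 1 protein of the doublet microtubules. They were listed by function, 39 in all, and a gene entered when the array annotation gave a feature its symbol alone. Of the 39, 37 were measured, among 19661 genes on the array. Dynlt1b and Rsph3a were not analysed here, because the features annotated to them also carry the symbols of near-identical copies and hold no values. Where a gene had several features, that with the highest mean over all 10 arrays stood for it, which applied to 6 members. Each array was hybridised with whole testis RNA of 1 mouse, and there were 5 WT and 5 Crem-/- (KO) mice. All mice had a mixed 129Pas x C57Bl/J background, were 8 weeks old and untreated, and were killed at 0h, when the light came on. In the KO a neomycin resistance gene interrupts the DNA-binding domains of Crem, and the study describes that stages past round spermatids are missing.

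In the axoneme, dynein arms walk along the neighbouring doublet microtubule and so bend the tail. Outer arms set the beat frequency and inner arms the wave form, while the radial spokes, the central pair and the nexin-dynein regulatory complex carry the signals that order their activity. Each arm is built around heavy chains, the ATP-driven motors, with intermediate and light chains at their base, and arms are put together in the cytoplasm with the help of assembly factors. Outer arms of the sperm tail contain DNAH8 and DNAH17, and those of motile cilia of epithelia contain DNAH5 with DNAH9 or DNAH11. CREM, which binds DNA and responds to cAMP, is most abundant in spermatids, the cells that form the tail.

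The 10 arrays had median log2 levels of 7.11 to 7.15, and the median standard error of a member's log2 change was 0.08. Crem fell by 1.71 ± 0.07 (SE) on the log2 scale, with every KO array below every WT array. The labels give 4 batches: batch 2 held 3 WT arrays and 1 KO array, batch 4 held 1 WT and 3 KO arrays, batch 1 held KO replicate 2 and batch 3 held WT replicate 4. Every change given is the log2 RMA level in KO less that in WT, estimated with limma over all features, and a gene was called at an adjusted p under 0.05. In whole testis, fewer cells of a type and less RNA per cell cannot be told apart.

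Most axonemal genes did not fall in KO testis. Of the 37 members 26 were called, 24 higher and 2 lower, and 11 were not called. Of all genes 44.3% were called, 31.1% higher and 13.2% lower, against 70.3% of the members. The lower genes were the inner arm heavy chain gene Dnah3 and the light chain gene Dynll2, which were both called lower by at least 1 in log2, as were 4.36% of all genes. The rises ran from 0.21 to 1.33, and 21 of the 24 were below 0.6. The median change was 0.31, beside 0.07 over all genes. WT and KO arrays did not overlap in 21 members (56.8%), beside 32.7% of all genes.

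The count of higher members depended on the scaling and on the number of arrays, and that of lower members was 2 in every alternative. With each array centred on 7 genes listed here as qPCR references (Rplp0, Ppib, Actb, Hprt, Eif2a, Utp6 and Tbcc), every change moved by −0.20. With this shift 8 members were higher and 2 lower, and the median member change was 0.11. The median of all genes went from 0.07 to −0.13. The 31.1% and 13.2% of all genes called higher and lower belong to the fit without this centring. They are therefore no yardstick for these counts. The main text of the study does not name its reference genes. Of these 7 reference genes themselves 4 were called higher and 1, Actb (−0.24), lower. Their mean change was 0.20, which is the size of the shift, and their median was 0.32. Centring on their median was not among the alternatives, so the 8 higher members rest on the use of the mean. All 24 higher members stayed above 0 with the reference centring. This had to be so, because the smallest rise, 0.21, was larger than the shift. The 24 were above 0 in batch 2 and in batch 4 as well, but the arrays of these batches also gave the calls. These signs are therefore no independent check of the rises.

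**Figure D1:**
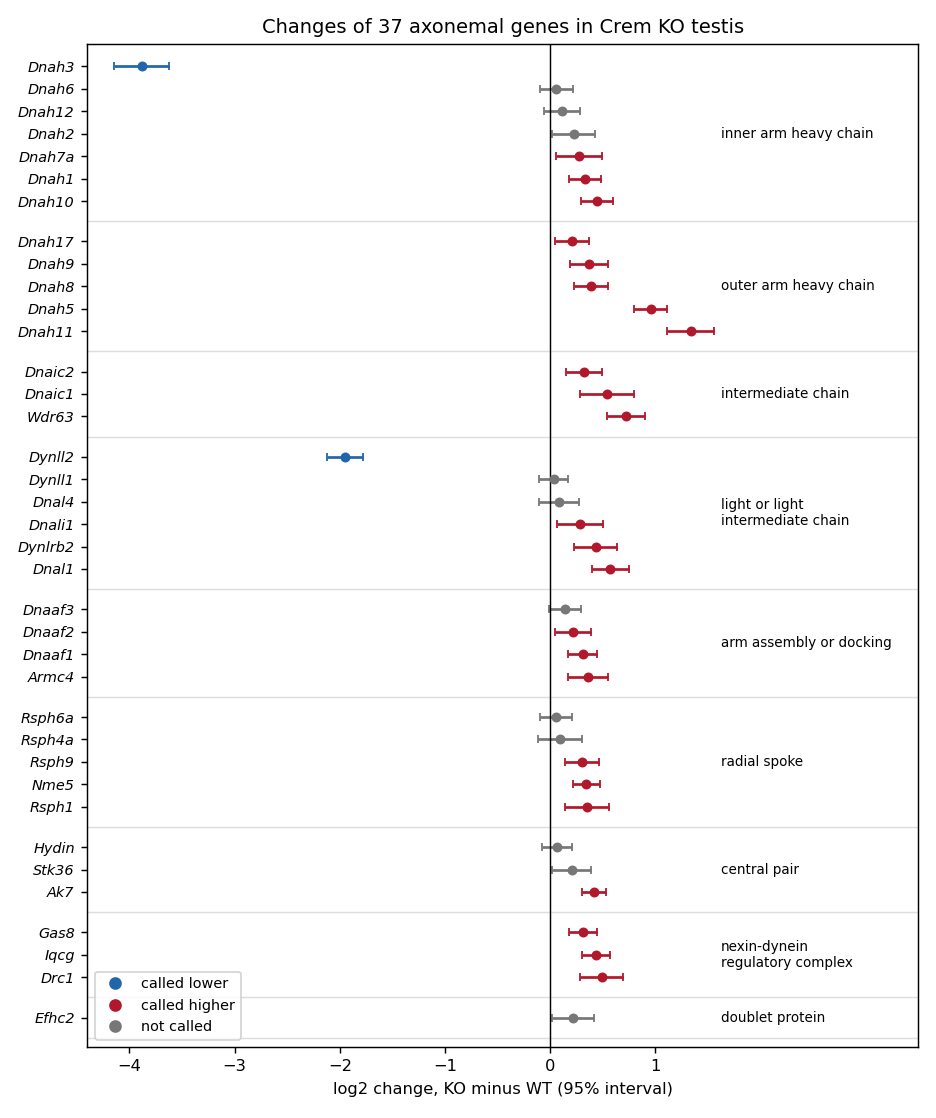
Log2 change, KO minus WT (horizontal axis), of the 37 measured members, grouped by their place in the axoneme. Points are limma estimates, bars are 95% intervals and colours give the call. Dnah3 and Dynll2 lie far to the left at −3.88 and −1.96, and the other 35 members lie above 0.

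Dnah3, an inner arm heavy chain, had by far the largest change among the members. Its level was 10.41, 10.39, 10.52, 10.37 and 10.15 in WT replicates 1 to 5. In KO replicates 1 to 5 it was 6.30, 6.79, 6.81, 6.27 and 6.23. The groups did not overlap, and KO replicates 2 and 3, the KO arrays outside batch 4, were the higher KO arrays. Mean levels were 10.37 ± 0.13 in WT and 6.48 ± 0.29 in KO (SD, n = 5 each). The fall, −3.88 ± 0.12 in log2 (SE; limma adjusted p = 1.6e-11), left 6.77% of the WT signal. The change was −3.62 in batch 2 and −3.88 in batch 4.

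Dnah3 is covered by 33 features of the array. All 33 were called lower, and in all 33 the groups did not overlap. The changes ran from −5.68 to −1.40 with a median of −3.85. For 20 features the KO mean lay in the lowest 25% of all values, where the size of a fall is poorly resolved. Of the KO arrays, replicate 2 had the highest level in 31 features and replicate 3 in the other 2. Features of 1 gene share the same arrays and are not replicates.

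**Figure D2:**
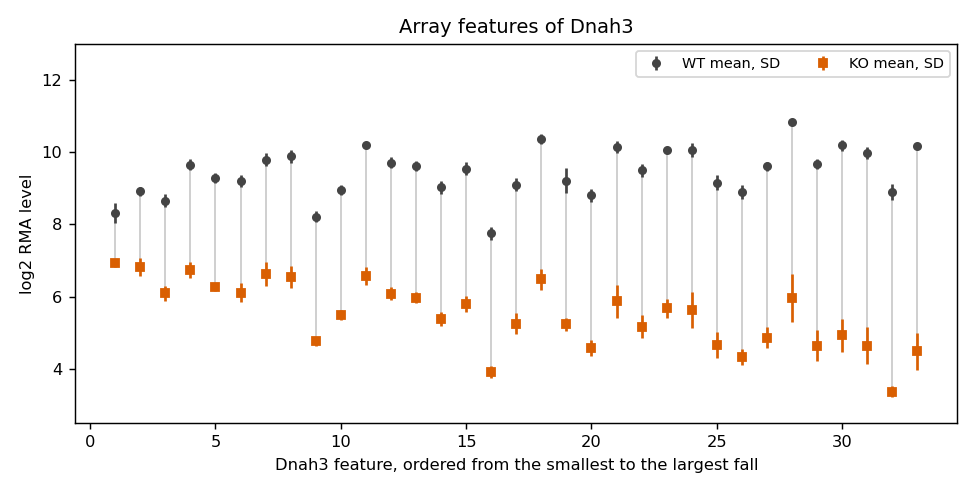
Log2 RMA level (vertical axis) of the 33 features of Dnah3, ordered by the size of their fall (horizontal axis), as mean with SD over 5 WT and 5 KO arrays. Every feature is lower in KO, by 1.40 to 5.68.

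Dynll1 and Dynll2 encode closely related LC8 light chains, which serve axonemal arms, cytoplasmic dynein and other protein complexes. Their transcripts parted in KO testis. Dynll2 stood at 11.56, 11.66, 11.55, 11.42 and 11.61 in WT replicates 1 to 5. It stood at 9.70, 9.32, 9.71, 9.62 and 9.66 in KO replicates 1 to 5. The groups lay well apart, and KO replicate 2 was the lowest array. Dynll2 changed by −1.96 ± 0.08 in log2 (SE; limma adjusted p = 1.6e-10), with −1.88 in batch 2 and −1.95 in batch 4, and 25.8% of the WT signal was left.

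Dynll1 gave 12.14, 12.14, 12.22, 12.20 and 12.20 in WT and 12.07, 12.10, 12.31, 12.34 and 12.26 in KO. The KO arrays lay on both sides of the WT arrays. Its change was 0.03 ± 0.07 (SE; limma adjusted p = 0.752), with a 95% interval of −0.11 to 0.17, and −0.17 with the reference centring. A difference between genes taken within an array is unchanged when that array is centred, since all its levels shift alike. Dynll2 minus Dynll1 was lower by 1.99 in KO, and lower in 5 of 5 KO arrays than in any WT array. It ran from −0.78 to −0.49 in WT and from −2.78 to −2.36 in KO. No p is given for it, since the changes were known beforehand.

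**Figure D3:**
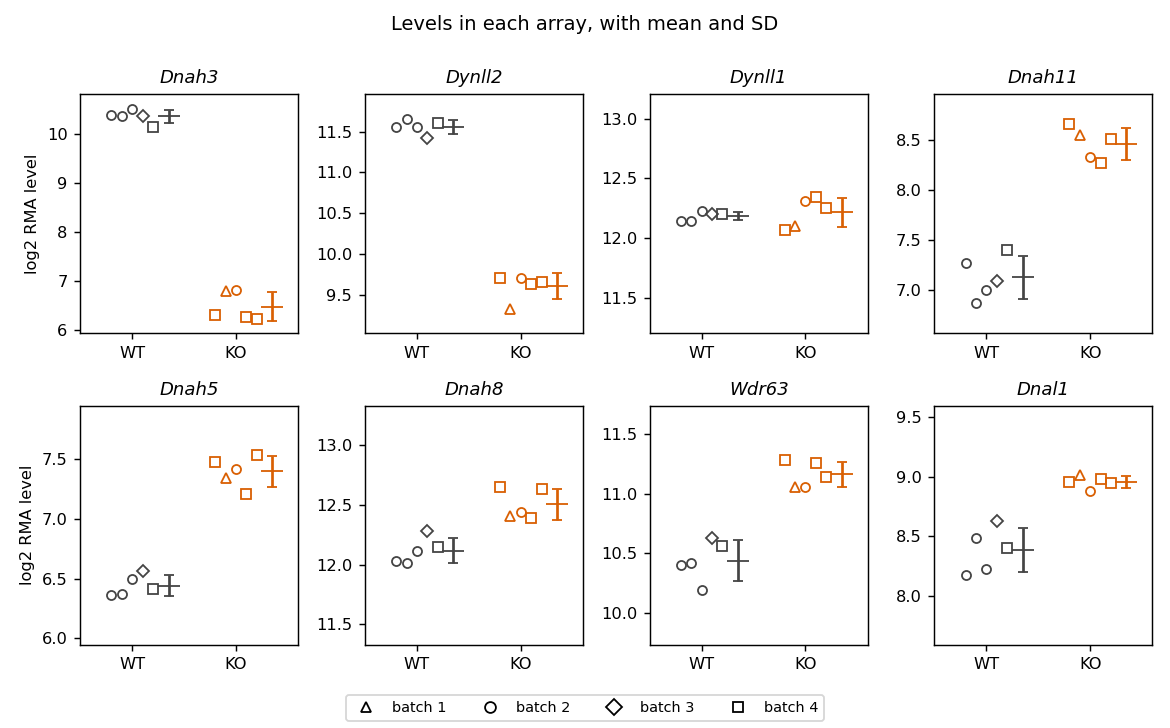
Log2 RMA level (vertical axis) of 8 members in each WT and KO array, with the mean and SD beside each group and symbols for the batches. Each panel has its own scale. Dnah3 and Dynll2 are lower in all KO arrays, Dynll1 overlaps, and Dnah11, Dnah5, Dnah8, Wdr63 and Dnal1 are higher in all KO arrays.

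All 5 outer arm heavy chain genes were called higher, beside 31.1% of all genes. This and the other places in the axoneme hold few members each, and their shares were not tested against that of all genes. The largest rise of any member was in Dnah11, known from epithelial cilia. Its WT levels were 7.27, 6.87, 7.01, 7.09 and 7.40, and its KO levels were 8.66, 8.55, 8.34, 8.27 and 8.51. Every KO array was above every WT array, by a mean of 1.33 ± 0.10 (SE; limma adjusted p = 1.9e-07). Dnah11 was the 1 member called higher by at least 1 in log2, as were 1.37% of all genes. The rise was 1.29 in batch 2 and 1.07 in batch 4.

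Dnah5, the other heavy chain partner in epithelial cilia, gave 6.36, 6.37, 6.50, 6.57 and 6.41 in WT and 7.48, 7.34, 7.41, 7.21 and 7.54 in KO. It rose by 0.96 ± 0.07 (SE; limma adjusted p = 1.3e-07), without overlap, by 1.00 in batch 2 and 1.00 in batch 4. Dnah9 of distal cilia rose by 0.37 ± 0.08. The heavy chain genes of sperm were both called higher. Dnah8 went from 12.03, 12.02, 12.12, 12.28 and 12.15 in WT to 12.65, 12.41, 12.44, 12.39 and 12.64 in KO, a rise of 0.39 ± 0.07 (SE) without overlap. Dnah17 rose by 0.21 ± 0.07 (SE; limma adjusted p = 0.0392), and its second feature, at 0.14, and the mean of both, at 0.18, were not called. Dnah17 was not called without WT replicates 2, 3 or 5 or without KO replicates 1, 3 or 5, each left out alone, and its change then was 0.17 to 0.21.

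Within arrays, Dnah5 minus Dnah8 was higher in KO by 0.57, and Dnah11 minus Dnah17 by 1.13. In both, all 5 KO arrays lay above all 5 WT arrays. These pairs were chosen with their changes known, so no p is given, and Dnah9, at 0.37, was close to Dnah8, at 0.39. Markers of multiciliated epithelium, which line ducts next to the testis, were measured beside them. Of 8 such markers 3 (37.5%) were called higher, beside 31.1% of all genes, and 0 were called lower. The 3 were Gmnc (0.73 ± 0.09, SE), Foxj1 (0.60 ± 0.08) and Sntn (0.40 ± 0.07). The other 5 were not called. Deup1 was at 0.15, and Ccno (−0.03), Trp73 (−0.10), Fam216b (−0.14) and Mcidas (−0.23) lay below 0. The median of the 8 markers was 0.06, beside 0.07 over all genes. Gmnc, Sntn and Fam216b had both means in the lowest 25% of all values. The summed level of the 8 markers was 11.14 to 11.32 in WT and 11.35 to 11.53 in KO on the log2 scale. Most of this sum came from Deup1, with means of 10.87 in WT and 11.02 in KO. Of 7 epididymis markers 0 were called higher and 2 lower, with sums of 8.59 to 8.97 in WT and 8.31 to 8.41 in KO, but 6 of them had both means in the lowest 25% of all values. Adam7 was at 6.66 in WT replicate 2 and at 4.65 to 4.94 in the other WT arrays. The part of these cells in the rises was not tested.

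The inner arm heavy chain genes other than Dnah3 changed little. Dnah10 rose by 0.44 ± 0.07 (SE), and all 5 of its features were called higher, by 0.34 to 0.44. Dnah1, whose human counterpart is known from defects of the sperm tail, rose by 0.33 ± 0.07. Dnah7a rose by 0.27 ± 0.10 with overlapping groups (limma adjusted p = 0.0485), and it shares sequence with Dnah7b (0.42) and Dnah7c (0.13), so its signal cannot be assigned with certainty. Dnah7a lost its call when WT replicate 1, 3 or 4 or KO replicate 1, 2, 3 or 5 was left out, with changes of 0.22 to 0.30. With batch as a fixed block it was at 0.13 (limma adjusted p = 0.468) and in batch 4 alone at 0.05, and it was not called with batch as a random block either (limma adjusted p = 0.0533). Dnah2 (0.22 ± 0.09), Dnah12 (0.11 ± 0.08) and Dnah6 (0.06 ± 0.07) were not called. Dnah2 was called higher without KO replicate 3 (0.27) and without KO replicate 4 (0.28). Both further features of Dnah6 were called higher, at 0.26 each, and so was the mean of its features, at 0.19, as was the second feature of Dnah12, at 0.20.

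Dnah3 was thus the 1 of 7 inner arm heavy chain genes that was called lower. Dnah12, another inner arm heavy chain gene, had a 95% interval of −0.06 to 0.28. Taken within arrays, Dnah3 minus Dnah12 was lower by 4.00 in KO. This pair too was chosen with its changes known, so no p is given. The KO arrays also differed among themselves. Over the 12 heavy chain genes KO replicate 1 was the highest KO array in 6, KO replicate 5 in 5, KO replicate 3 in 1 (Dnah3) and KO replicates 2 and 4 in 0. Over the other 25 members KO replicates 1 to 5 were highest in 8, 5, 1, 7 and 4, and over all genes replicates 1 and 5 together in 39%. This split of the arrays was noticed in the values and was not tested.

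All 3 intermediate chain genes were called higher, beside 31.1% of all genes. Wdr63, a chain of an inner arm, stood at 10.40, 10.42, 10.19, 10.62 and 10.56 in WT and at 11.28, 11.06, 11.06, 11.26 and 11.14 in KO. The groups were apart, and the change was 0.72 ± 0.08 (SE; limma adjusted p = 1.3e-05), with 0.72 in batch 2 and 0.67 in batch 4. Dnaic1 and Dnaic2, chains of the outer arm, rose by 0.54 ± 0.12 and 0.32 ± 0.08. With batch as a fixed block Dnaic2 was at 0.25 and was not called (limma adjusted p = 0.0823). For Dnaic1 the groups overlapped and the change was 0.10 in batch 2, where it was not called, against 0.64 in batch 4.

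Among 6 light and light intermediate chain genes, Dynll2 was the 1 that fell and 3 (50%) were called higher, beside 31.1% of all genes. Dnal1, whose product binds the motor domain of an outer arm heavy chain, gave 8.17, 8.49, 8.23, 8.63 and 8.40 in WT. In KO it gave 8.95, 9.01, 8.88, 8.98 and 8.94, a narrow band above all WT arrays. The change was 0.57 ± 0.08 (SE; limma adjusted p = 9.0e-05), and it was 0.58 in batch 2 and 0.56 in batch 4. Dynlrb2, a roadblock light chain, rose by 0.43 ± 0.10 without overlap. Dnali1, an inner arm light intermediate chain, rose by 0.28 ± 0.10 with overlap, and its change was 0.02 in batch 4 and 0.21 with batch as a fixed block, neither called. It was not called when any array but WT replicate 4 or WT replicate 5 was left out, with changes of 0.19 to 0.30. Dnal4 (0.08 ± 0.09) was not called.

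Dnah11, Dnah5, Wdr63 and Dnal1 were the higher members, and Dnah3 and Dynll2 the lower members, whose calls held under all 22 alternatives. In addition to these 4, Ak7, Iqcg, Drc1 and Dnah10 were still called higher with the reference centring.

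Of the 4 genes for arm assembly and docking 3 (75%) were called higher, beside 31.1% of all genes. Dnaaf1 rose by 0.31 ± 0.06 (SE), Dnaaf2 by 0.22 ± 0.08, and Armc4, a component of the outer arm docking complex, by 0.36 ± 0.09. Dnaaf3 was at 0.14 ± 0.07 and was not called. The second feature of Armc4 rose by 0.86. With batch as a fixed block neither Armc4 (0.34, limma adjusted p = 0.0571) nor Dnaaf2 (0.26, limma adjusted p = 0.0609) was called, and Armc4 was at 0.14 in batch 2 and 0.54 in batch 4. Dnaaf2 was close to the threshold (limma adjusted p = 0.0406) and was not called without WT replicate 2, 3 or 5 or KO replicate 1, 4 or 5, with changes of 0.17 to 0.23. Dnaaf3 was called higher without KO replicate 2 (0.18) and without WT replicate 5 (0.19).

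The radial spoke genes had 3 of 5 (60%) called higher, beside 31.1% of all genes. Rsph1 and Rsph9 of the spoke head rose by 0.35 ± 0.10 and 0.30 ± 0.08 (SE), and Nme5, a protein of the spoke with a nucleoside diphosphate kinase domain, by 0.34 ± 0.06. The groups did not overlap in these 3 genes. Rsph1 was not called with batch as a fixed block (0.30, limma adjusted p = 0.0929). Rsph6a, a spoke head gene of testis, gave 10.75, 10.86, 10.57, 10.86 and 10.68 in WT and 10.95, 10.74, 10.80, 10.72 and 10.79 in KO. The groups overlapped, and its change was 0.06 ± 0.07 with a 95% interval of −0.10 to 0.21. Rsph4a, its counterpart in epithelial cilia, was at 0.10 ± 0.10, and its WT levels, 5.00, 4.91, 4.70, 4.40 and 4.72, and KO levels, 4.76, 4.81, 4.82, 4.89 and 4.93, lay low. Rsph4a was the 1 member with both means in the lowest 25% of all values, where the array can hide a change.

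The 3 measured genes of the nexin-dynein regulatory complex were all called higher without overlap. Of all genes 31.1% were called higher, and 32.7% had no overlap in either direction. Drc1 rose by 0.49 ± 0.10 (SE), Iqcg by 0.44 ± 0.06 and Gas8 by 0.32 ± 0.06. Of the central pair genes, Ak7, an adenylate kinase, stood at 10.47, 10.51, 10.39, 10.50 and 10.56 in WT and at 10.96, 10.92, 10.89, 10.89 and 10.84 in KO. Both groups were tight and lay apart, and the rise of 0.42 ± 0.05 was measured with the smallest error of all members. Hydin, a large protein of a central pair projection, was at 0.06 ± 0.07, and Stk36, a kinase needed to build the central pair, at 0.21 ± 0.09 (limma adjusted p = 0.0751). Efhc2 of the doublet microtubules was at 0.22 ± 0.09 (limma adjusted p = 0.0797). Stk36 was called higher with batch as a fixed block (0.30, limma adjusted p = 0.0318), with array weights (0.24), without KO replicate 2 (0.27) and without both KO arrays outside batch 4 (0.29), and Efhc2 without WT replicate 2 (0.27). The 11 members that were not called all lay above 0, from 0.03 to 0.22, and 8 of them turned below 0 with the reference centring.

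Other genes of the axoneme were also mostly called higher. Of 56 listed by function, arm assembly factors, spoke, central pair and doublet proteins among them, 51 were measured. Like the members they were chosen with earlier results of these data known, so their shares are no independent check. Of these, 38 (74.5%) were called higher and 1 (1.96%) lower, beside 31.1% and 13.2% of all genes. Their median change was 0.30. The 1 that fell was Tctex1d1, which encodes a protein with a dynein light chain domain of the Tctex type. It stood at 9.29, 9.79, 9.73, 9.76 and 9.89 in WT and at 5.32, 5.56, 5.85, 5.10 and 4.99 in KO. The groups were far apart, with a change of −4.33 ± 0.15 (SE; limma adjusted p = 4.4e-11). The largest rises were in Maats1 of a spoke-associated complex (1.02 ± 0.06), the arm assembly gene Lrrc6 (0.69 ± 0.06), and Cfap53 (0.68 ± 0.06) and Cfap45 (0.65 ± 0.07), whose products lie inside doublet microtubules. With the reference centring 16 were higher and 3 lower, and the shares of all genes given above do not belong to that fit.

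Cytoplasmic dynein carries cargo along microtubules and shares light chains with the axoneme. Of its 12 genes, dynactin subunits included, 8 (66.7%) were called higher and 1 (8.33%) lower, beside 31.1% and 13.2% of all genes. Their median change was 0.33. Dctn3 of dynactin rose by 0.59 ± 0.07 (SE), Dync1i1 by 0.50 ± 0.10, Dync1li2 by 0.39 ± 0.07 and Dync2li1 by 0.37 ± 0.11. Dynlt3, a light chain of the Tctex type, fell by 0.44 ± 0.08 on the log2 scale, without overlap. The medians of these lists, 0.30 to 0.33, were close to that of the members, 0.31, and to that of the reference genes, 0.32. The cytoplasmic dynein list, too, was chosen with earlier results of these data known.

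**Figure D4:**
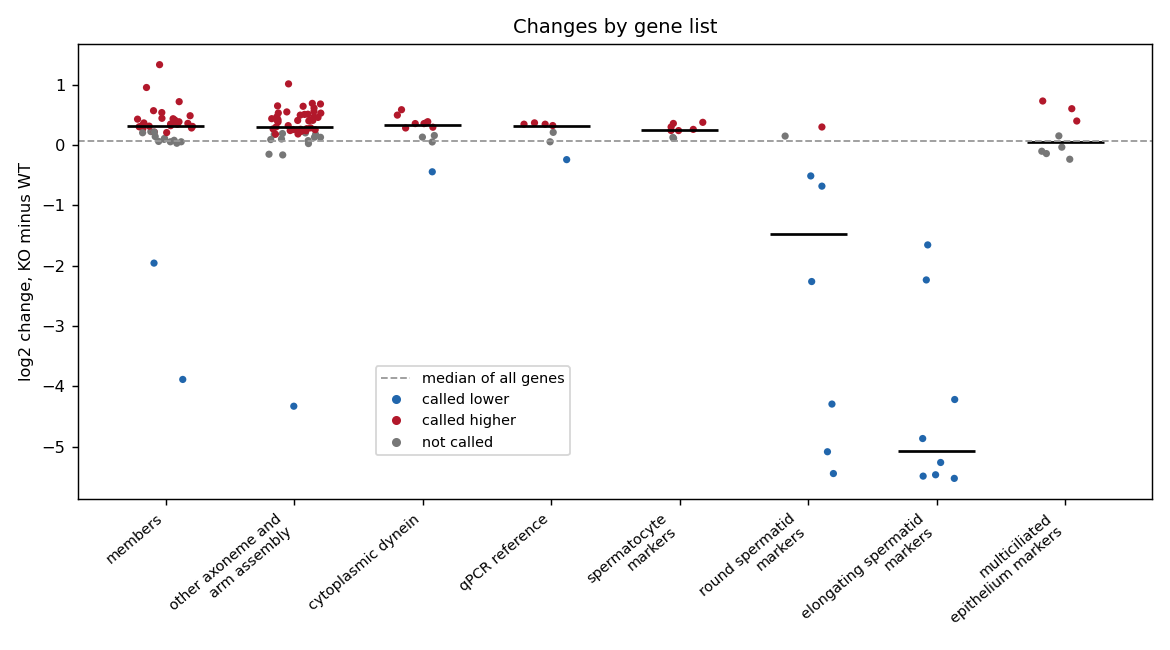
Log2 change, KO minus WT (vertical axis), of each gene in the members and in 7 other lists (horizontal axis). Black bars are list medians, the dashed line is the median of all genes at 0.07 and colours give the call. Members, other axoneme genes and cytoplasmic dynein genes lie mostly just above the line, and elongating spermatid markers far below it.

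Markers of germ cell stages and of other testis cells were measured in the same arrays. Those of spermatids were mostly called lower. Those of spermatocytes were mostly called higher, like those of Leydig cells and macrophages. All 8 elongating spermatid markers were called lower, with a median of −5.06, and their summed level was 16.18 to 16.45 in WT and 12.44 to 13.54 in KO on the log2 scale. Of 8 round spermatid markers 6 were lower and 1 higher, with a median of −1.47 and sums of 14.38 to 14.49 in WT and 13.84 to 13.96 in KO. Of 8 spermatocyte markers 6 were higher and 0 lower, with a median of 0.25 and sums of 12.99 to 13.08 in WT and 13.25 to 13.37 in KO. Spermatogonium markers had 3 (37.5%) higher and 1 (12.5%) lower of 8, and Sertoli cell markers 3 (42.9%) higher and 0 lower of 7. Leydig cell markers had 5 higher and 0 lower of 6, macrophage markers 5 higher and 0 lower of 5, and peritubular myoid markers 1 higher and 0 lower of 5. As 31.1% of all genes were called higher and 13.2% lower, the spermatogonium shares were near those of all genes. The part of these cell types in the changes of the axonemal genes was not tested.

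Promoters were read for the motifs of regulators known in these cells. CREM binds the cAMP response element TGACGTCA and its short form TGACG. RFX factors, which act on genes of cilia, bind the X-box, of which GTTGCC is only a part. Each motif was searched on both strands from 250 bases before to 50 bases after the start of transcription. In the RefSeq table (GRCm38.p6) used for this, 30 of the 37 members were matched. Dnah3, Dynll2, Dnaaf1, Armc4, Rsph1, Rsph4a and Nme5 were not analysed here for motifs. TGACGTCA was found in 2 of 30 members (6.67%), beside 1.79% of 32851 promoters. TGACG, which is also part of TGACGTCA, was found in 5 (16.7%, beside 20.8%) and GTTGCC in 11 (36.7%, beside 12.5%).

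The promoters with TGACGTCA were those of Wdr63, which rose by 0.72, and Dnah6, which was not called. The full element began at −164 in Wdr63 and at −175 in Dnah6, counted in bases from the start. The members with more than 1 copy of GTTGCC were Gas8 with 3 and Iqcg and Dnah10 with 2 each, which rose by 0.32, 0.44 and 0.44. These 5 promoters are shown because they carry the full element or the most copies of GTTGCC among the members. They are written 5′ to 3′ on the strand of the gene, with the motifs in capitals. They lie at chr3:146107987-146108286 (Wdr63, minus strand), chr6:73221582-73221881 (Dnah6, minus strand), chr8:123518585-123518884 (Gas8, plus strand), chr16:33056137-33056436 (Iqcg, minus strand) and chr5:124724835-124725134 (Dnah10, plus strand). A match is a description of the letters and not a site of binding.
Wdr63: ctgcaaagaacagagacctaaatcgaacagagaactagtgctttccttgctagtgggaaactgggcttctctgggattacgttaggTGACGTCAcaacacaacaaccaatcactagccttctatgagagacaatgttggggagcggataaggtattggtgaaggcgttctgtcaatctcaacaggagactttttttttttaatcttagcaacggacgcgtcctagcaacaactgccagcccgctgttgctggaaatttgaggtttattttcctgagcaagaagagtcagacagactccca
Dnah6: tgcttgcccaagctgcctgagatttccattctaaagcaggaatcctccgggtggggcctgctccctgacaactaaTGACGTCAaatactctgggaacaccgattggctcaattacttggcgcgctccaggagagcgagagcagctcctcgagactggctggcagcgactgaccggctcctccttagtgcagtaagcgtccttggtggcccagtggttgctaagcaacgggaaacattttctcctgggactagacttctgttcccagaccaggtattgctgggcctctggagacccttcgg
Gas8: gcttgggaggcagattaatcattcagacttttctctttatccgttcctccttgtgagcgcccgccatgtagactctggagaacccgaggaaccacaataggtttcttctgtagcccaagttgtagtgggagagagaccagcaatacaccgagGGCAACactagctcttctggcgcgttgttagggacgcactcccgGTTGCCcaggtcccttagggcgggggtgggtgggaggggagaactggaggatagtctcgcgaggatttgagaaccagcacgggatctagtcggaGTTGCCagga
Iqcg: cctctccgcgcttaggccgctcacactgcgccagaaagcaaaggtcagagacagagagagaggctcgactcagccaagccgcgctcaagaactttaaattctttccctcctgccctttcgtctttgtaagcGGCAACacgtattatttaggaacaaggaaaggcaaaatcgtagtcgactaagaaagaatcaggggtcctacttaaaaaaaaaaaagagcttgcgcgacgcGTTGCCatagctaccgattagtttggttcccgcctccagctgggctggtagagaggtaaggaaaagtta
Dnah10: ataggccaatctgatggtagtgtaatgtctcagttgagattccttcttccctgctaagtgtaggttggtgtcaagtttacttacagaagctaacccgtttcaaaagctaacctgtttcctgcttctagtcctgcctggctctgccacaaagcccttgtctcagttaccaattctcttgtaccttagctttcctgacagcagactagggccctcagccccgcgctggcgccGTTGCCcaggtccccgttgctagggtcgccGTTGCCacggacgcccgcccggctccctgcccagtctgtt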

How the data were processed

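Testis RNA of 5 WT and 5 KO mice was measured on the Affymetrix Mouse Gene 1.0 ST array. The authors processed the arrays with RMA (package XPS, core transcripts, antigenomic background) and deposited log2 levels. The package version and the genome build of the probes are not given in the sources used here. Of 35557 rows, 9868 were empty on every array, and 25689 features were used. Features were named through the platform annotation in GEO (20777 with 1 symbol, 232 with several, 4680 with none), with symbols updated through the RefSeq table (GRCm38.p6), in which 20696 matched.

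The KO minus WT difference was fitted with limma 3.58.1 under R 4.3.3 (lmFit and eBayes on all 10 arrays, two-sided, no covariate, as the methods state none), with p adjusted by Benjamini-Hochberg over all features. The script was tested on simulated data. Replicates were numbered by order of deposition. The members and lists were chosen with earlier results of these data known. Per-array values were given for members called without overlap and changed by at least 1, for the 4 largest called rises and falls, for Dynll1 and Dynll2 as a pair, and for a few others chosen after their values were seen (Dnah8, Ak7, Rsph4a, Rsph6a). In the other lists the 4 largest called rises and falls were named, and Dnah7b and Dnah7c as copies of Dnah7a. An exact permutation test was run on the differences between gene pairs within arrays. Its p is not given, because the pairs were chosen with their changes known. The number of arrays limits the precision. Alternatives were a further quantile normalisation, median centring, centring on the reference genes, batch as a fixed or random block, batches 2 and 4 alone, array weights, trend and robust eBayes, removal of the lowest 25% of features, the mean of a gene's features and leaving out each array. Leaving out both KO arrays outside batch 4 was added after the data were seen.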

Additional observations from a re-analysis of the deposited data

Results flagged for a closer look

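In 2 of the 74 groups of 5 arrays examined, 1 array stood far from the other 4 for its gene, and chance gives such a gap in about 1 group in 20. Dnaic1 in WT replicate 2 was at 10.62, against 10.29 to 10.35 in the other WT arrays. Dynll2 in KO replicate 2 was at 9.32, against 9.62 to 9.71 in the other KO arrays.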

How the results depend on the processing

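The falls of Dnah3 and Dynll2 and the rises of Dnah11, Dnah5, Wdr63 and Dnal1 kept their call under all 22 alternatives. Of 24 higher members, 18 were still called with batch as a fixed block, which rests on batches 2 and 4, 20 under each of the 10 fits that left out 1 array, and 22 without both KO arrays outside batch 4. Those 10 fits gave 20 to 24 higher and 2 to 2 lower members, a median of 0.27 to 0.33, and 32 to 37 higher and 1 to 3 lower other axoneme genes, the 3 without KO replicate 4. With the reference centring 8 members and 16 other axoneme genes were higher and 3 of the latter lower, and the median member change was 0.11. Batch 2 alone gave 6 and 14 higher genes and batch 4 alone 8 and 18, where 1 group is a single array whose spread is taken from the others. Signs turned only in members not called: with the reference centring Dnah6 (−0.15), Dnah12 (−0.090), Dnal4 (−0.12), Dynll1 (−0.17), Dnaaf3 (−0.060), Rsph4a (−0.11), Rsph6a (−0.15) and Hydin (−0.14), with the fixed block Dnah12 (−0.0041), in batch 2 Dnah6 (−0.17), Rsph4a (−0.051) and Hydin (−0.023), and in batch 4 Dnah12 (−0.11), Dnal4 (−0.10) and Dnaaf3 (−0.0011). The cause was not tested. Dnah7a, Dnah17, Dnali1 and Dnaaf2 lost their call in 6 to 8 of the 10 fits. No paired analysis was possible because replicate numbers follow the order of deposition and pair no mice.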
